A study of Mus musculus with 4 samples.

Results

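Kidney neutrophils were described in 4 droplet single-cell RNA sequencing libraries of mouse kidney after ischemia-reperfusion (I/R), an injury in which the blood supply is interrupted and restored. A neutrophil was a barcode with at least 200 genes, at most 50% mitochondrial UMIs (unique molecular identifiers, the counted RNA molecules), at least 10 UMIs of S100a8 and S100a9 together and at least 2 UMIs of Csf3r, Cxcr2 and Retnlg together. Barcodes with over 5 UMIs of C1qa, C1qb and C1qc, or with any UMI of Cd3d, Cd3e or Cd3g, were left out. The rule found 356 neutrophils among 37839 kept barcodes. The mice were male C57BL/6, all were injured, and kidneys were taken on day 5, 14 or 28. Mice of the day 5 Lac.z group had been given 1e9 colony-forming units of Lactobacillus casei Zhang (Lac.z) a day by gavage for 4 weeks before the injury. The labels of the day 5, day 14 and day 28 libraries name no Lac.z. The sources used here do not say what those mice were gavaged with or how many animals gave a library. Each group was 1 library, and an uninjured kidney was not analysed here. There is therefore no replicate spread and no test in what follows, and every interval covers counting error only. Where several values stand in a row, they follow the order day 5, day 5 Lac.z, day 14 and, where given, day 28.

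Neutrophils are short-lived granulocytes that leave the bone marrow under the control of the G-CSF receptor (Csf3r) and the chemokine receptor CXCR2, and that enter the ischemic kidney early. Their granule proteins are made in sequence during maturation, primary granules first, then secondary and tertiary granules, and most granule transcripts are shut off before the cell reaches the blood. Type I interferons bind a receptor shared by nearly all nucleated cells, and through an element in the promoters of interferon-stimulated genes turn on antiviral proteins such as the IFIT family and ISG15.

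The interferon-stimulated genes carry the main difference between the 2 day 5 libraries, and the promoters of 4 of them and of Irf7 are shown for that reason. They are RefSeq windows of 300 bases (build GRCm38.p6), with 250 before and 50 after a start position. Each is written 5′ to 3′ on the strand of the gene. For Ifit1, Isg15 and Rsad2 that position is the first base of the gene's RefSeq span. For Ifit3 and Irf7 it lies inside the span, which begins at chr19:34583119 and chr7:141266499 on the gene's strand. Capitals mark GAAA, any 2 bases and GAAA again, the core of the interferon-stimulated response element, or on the other strand TTTC, any 2 bases and TTTC, and overlapping matches are merged. Ifit1 lies at chr19:34640639-34640938 (plus strand), Ifit3 at chr19:34583279-34583578 (plus), Isg15 at chr4:156200769-156201068 (minus), Rsad2 at chr12:26456403-26456702 (minus) and Irf7 at chr7:141266375-141266674 (minus).
Ifit1: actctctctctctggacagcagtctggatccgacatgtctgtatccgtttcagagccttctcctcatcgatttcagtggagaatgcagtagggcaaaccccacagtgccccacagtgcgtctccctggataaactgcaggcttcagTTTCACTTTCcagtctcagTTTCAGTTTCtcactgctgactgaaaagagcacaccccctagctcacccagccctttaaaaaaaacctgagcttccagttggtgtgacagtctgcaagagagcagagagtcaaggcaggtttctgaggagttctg
Ifit3: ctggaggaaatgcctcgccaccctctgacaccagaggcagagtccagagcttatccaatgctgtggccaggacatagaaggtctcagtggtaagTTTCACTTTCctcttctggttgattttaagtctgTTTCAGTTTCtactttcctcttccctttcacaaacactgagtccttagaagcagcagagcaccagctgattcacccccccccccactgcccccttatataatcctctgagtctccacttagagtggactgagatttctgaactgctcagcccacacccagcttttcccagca
Isg15: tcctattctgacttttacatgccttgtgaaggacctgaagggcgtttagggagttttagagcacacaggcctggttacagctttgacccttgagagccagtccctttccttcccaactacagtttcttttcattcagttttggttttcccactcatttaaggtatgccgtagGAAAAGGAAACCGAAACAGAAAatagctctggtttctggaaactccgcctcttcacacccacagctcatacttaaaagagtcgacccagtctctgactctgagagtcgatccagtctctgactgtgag
Rsad2: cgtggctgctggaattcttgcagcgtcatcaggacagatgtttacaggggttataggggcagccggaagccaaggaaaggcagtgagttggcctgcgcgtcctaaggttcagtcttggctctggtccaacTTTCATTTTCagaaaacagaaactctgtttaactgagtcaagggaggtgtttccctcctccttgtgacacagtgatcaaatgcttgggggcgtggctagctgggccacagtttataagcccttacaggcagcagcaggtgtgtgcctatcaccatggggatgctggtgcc
Irf7: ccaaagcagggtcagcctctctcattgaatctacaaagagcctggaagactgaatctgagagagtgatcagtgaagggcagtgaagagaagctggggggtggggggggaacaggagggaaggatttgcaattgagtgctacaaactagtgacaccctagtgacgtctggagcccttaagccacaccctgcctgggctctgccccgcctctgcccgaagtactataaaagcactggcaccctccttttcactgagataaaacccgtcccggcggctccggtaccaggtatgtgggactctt
Ifit1 and Ifit3 held 2 matches each, Isg15 held 3 overlapping ones, Rsad2 held 1, and the Irf7 window held none. The table matched 20 of the 27 interferon genes measured below, and 10 of these 20 held the motif, against 3.99% of all 27025 genes with a window and 5.13% of the 1968 measured genes that matched. Among the genes at least 2-fold higher with Lac.z, 16 of 70 matched genes (22.9%) held it, and among those at least 2-fold lower 2 of 60 (3.33%) did. The higher genes include 25 of the 27 interferon genes, so these counts overlap and are not separate results. A match is a string of letters and not a shown binding site, and the absence of one in Irf7 says only that these letters are not in this window.

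Neutrophils numbered 139, 127, 70 and 20. Their share of kept barcodes was 1.96% (95% exact Clopper-Pearson interval 1.65 to 2.31), 1.80% (1.51 to 2.14), 0.731% (0.571 to 0.923) and 0.141% (0.0864 to 0.218). The share was 2.68-fold lower at day 14 than at day 5 (2.00 to 3.63) and 13.9-fold lower at day 28 (8.64 to 23.4), while the Lac.z library stood at 0.919 times day 5 (0.717 to 1.18). These ratios depend on the other cells of a library: proximal tubule barcodes, picked by a marker rule, made up 18.5%, 57.4% and 59.7%. Of the neutrophils and rule-based macrophages, monocytes, T cells and B cells together, neutrophils were 3.1%, 5.90%, 3.71% and 1.51%. On that denominator the Lac.z library was 1.90-fold above day 5 (1.49 to 2.44), and day 14 was 1.2-fold above it (0.886 to 1.61), so the order of day 5 and day 14 turned. Rule-based macrophages numbered 3691, 1635 and 881.

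**Figure D1:**
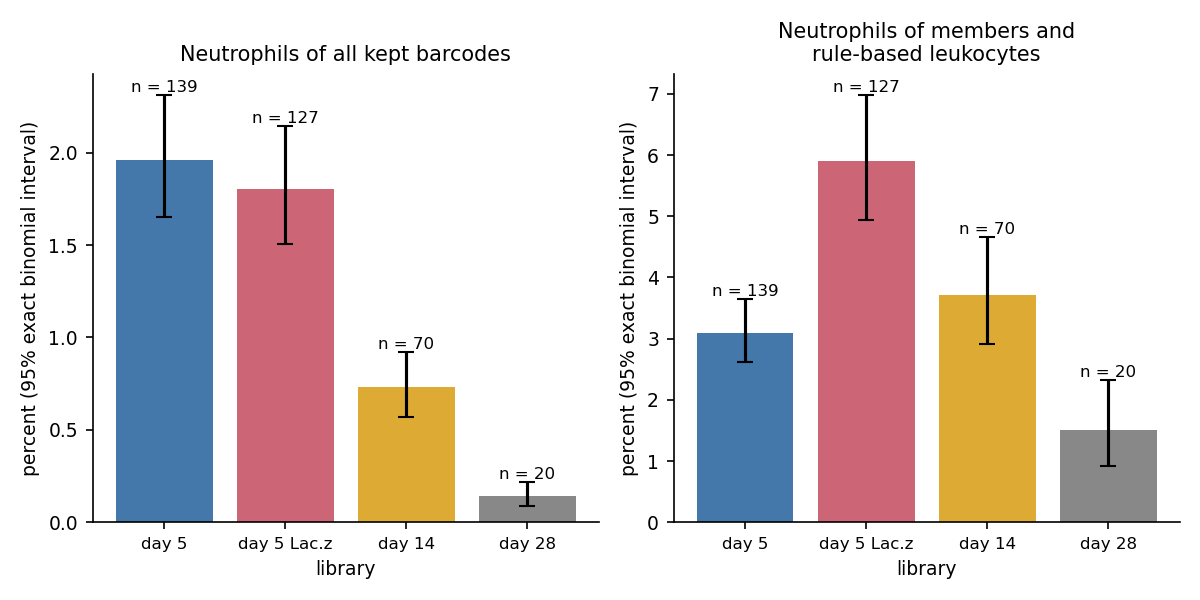
Percent of neutrophils in each library with 95% exact binomial intervals, on the left of all kept barcodes and on the right of neutrophils and rule-based leukocytes. The left bars are highest at day 5 (1.96%) and the right bars highest in the Lac.z library (5.90%).

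Neutrophils held few RNA molecules. The median was 2428, 2683, 3000.5 and 2607.5 UMIs, against 9628, 8755, 6505 and 5137 in the other kept barcodes of the same libraries. Their UMIs summed to 453540, 508063, 274379 and 78395. The kept barcodes shared between any pair of libraries numbered 9 to 32, and none of the shared barcodes was a neutrophil in both. Both day 5 matrices came from software version 3.0.2 and the later ones from 3.1.0, per their headers, so version and time cannot be told apart.

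S100a8 and S100a9 encode the subunits of calprotectin, the most abundant cytosolic protein of neutrophils. The levels of these and the other rule genes are given as a description only. In counts per 1e6 UMIs of the neutrophils (CPM), S100a8 (ENSMUSG00000056054) was at 28134, 59058, 29867 and 38740. Proximal tubule barcodes of the same libraries held it at 0.452 to 2.68 CPM. These barcodes were picked with under 10 UMIs of S100a8 and S100a9 together, so a low level was fixed in advance. Retnlg (ENSMUSG00000022651), a resistin-like secreted protein, was at 4149.6, 10144, 2883 and 5753 CPM. Csf3r was at 959, 939, 1392 and 1097 CPM, and Cxcr2 at 889, 959, 864 and 612 CPM. Just inside the threshold on S100a8 and S100a9, with 10 to 19 UMIs, stood 8, 2, 9 and 0 neutrophils. Just outside it, with 5 to 9 UMIs and every other condition met, stood 8, 2, 4 and 1 barcodes. Of the 8 outside barcodes at day 5, 100% had a UMI of Hdc, against 75% of the 8 just inside.

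Neutrophil genes that the rule did not use were detected in most of these barcodes. Hdc, which makes histamine, was detected in 89.9%, 88.2%, 87.1% and 95% of neutrophils and in 0.182% to 1.83% of macrophages, whose median was 5667.5 to 11843 UMIs. Mmp9, gelatinase B, was detected in 87.8%, 81.1%, 88.6% and 85%, and in 0% to 2.93% of macrophages. Il1r2, the decoy receptor for interleukin-1, was detected in 74.8%, 73.2%, 84.3% and 85%, and in 1.17% to 2.50% of macrophages. The primary granule genes Mpo, Elane and Ctsg had no UMI in any library, and Mki67 had 2, 3, 0 and 0 UMIs. Prtn3, another primary granule protease, had 13, 9, 1 and 0 UMIs.

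Other cell types left traces. The 11 T and NK cell markers summed to 2 to 3 UMIs per library with 9 or 10 of them at 0, and the 6 mast cell and basophil markers were at 0 in 3 libraries and at 10 UMIs with Lac.z. Of 7 eosinophil markers, 4 to 7 were at 0 per library, and Siglecf gave most of what was found. The 12 macrophage markers summed to 1074, 925 and 558 CPM, against 31815 to 36757 CPM in macrophages. The rule capped C1q and allowed no Cd3 UMI, and macrophages were picked on C1q, so these low levels were partly fixed in advance. A C1q UMI was found in 50, 22, 12 and 1 neutrophils. The C1q cut left out 12, 1, 0 and 0 barcodes that met the other conditions. The 11 proximal tubule markers summed to 6092, 5312 and 8517 CPM, and 4 neutrophils held 2198 of 2763 of these UMIs at day 5, 1414 of 2699 with Lac.z and 1606 of 2337 at day 14. Haemoglobin and other erythroid UMIs numbered 5, 10067 and 8, and 4 neutrophils held 10035 of the 10067. The part of these cells in the results was not tested beyond the alternatives given in the closing section.

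With Lac.z the neutrophils had far more RNA of type I interferon-stimulated genes at day 5. The list was chosen with earlier results of these data known, so its counts are a description. Of 41 genes on the list, 27 were measured, meaning at least 50 UMIs over both libraries. Of these 27, 25 were at least 2-fold higher with Lac.z and 0 at least 2-fold lower, with a median log2 ratio of 2.74 (6.67-fold). A list gene near 0 at day 5 was measured only through the Lac.z library, so that cut let it count only as higher. Over all 2486 measured genes, 3.34% were at least 2-fold higher, 3.06% at least 2-fold lower and 6.4% either, and the median was -0.20. Summed over all 41 list genes, without the cut at 50 UMIs, neutrophils held 3005, 15049 and 3098 CPM.

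The IFIT proteins, which bind viral RNA, led the list. Ifit1 (ENSMUSG00000034459) had 5, 279, 2 and 8 UMIs, a ratio of 49.8 with Lac.z (95% interval 21.1 to 155). These UMIs came from 2 neutrophils at day 5 and from 47 with Lac.z. Ifit3 (ENSMUSG00000074896) had 11, 290, 3 and 3 UMIs in 4, 52, 2 and 2 neutrophils, a ratio of 23.5 (13 to 47.7). Ifit2 had 1, 60, 0 and 0 UMIs. Ifit3b (5, 108, 0 and 1 UMIs) is a near-identical copy of Ifit3, so the division of reads between this pair is uncertain. At day 5 and day 14 the whole IFIT family was near 0 in neutrophils.

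Genes with a baseline at day 5 differed in the same direction. Isg15 (ENSMUSG00000035692), a ubiquitin-like modifier, had 40, 490, 25 and 5 UMIs, a ratio of 10.9 (7.91 to 15.5). After each neutrophil was thinned to 1000 UMIs, it was detected in 8.89%, 42.7% and 11.4% (18.0%, 55.9% and 25.7% before thinning). Proximal tubule barcodes had it in 1.83%, 9.75% and 0.840%, at medians of 7479, 8413 and 6891 UMIs. Ifi27l2a, an interferon-induced membrane protein, had 154, 1677, 188 and 104 UMIs (9.72-fold with Lac.z, 8.24 to 11.5). Ifitm3, which blocks virus entry at membranes, had 289, 1528, 165 and 100 UMIs (4.72-fold, 4.16 to 5.37). Irf7, a transcription factor that amplifies interferon production, had 18, 199, 19 and 8 UMIs (9.87-fold, 6.09 to 17.0). The antiviral enzymes Rsad2 (6.85-fold), Oasl1 (11.8-fold) and Oas3 (5.92-fold), the tetherin gene Bst2 (9.90-fold), Rtp4 (6.86-fold), Xaf1 (15.5-fold) and Slfn5 (6.94-fold) stood in the same range.

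The 2 genes under 2-fold were Trim30a (1.77-fold, 1.35 to 2.35) and Slfn1 (1.11-fold, 0.944 to 1.30). Slfn1, a schlafen family gene, was already detected in 74.1% of neutrophils at day 5, 80.3% with Lac.z and 62.9% at day 14, while macrophages had it in 11.1%, 62.3% and 12.9%. In macrophages Slfn1 was higher with Lac.z by 3.60 on the log2 scale. Irf9, a transcription factor of the pathway, was 2.68-fold higher (1.40 to 5.47), under 2-fold in 2 alternative settings. The receptor genes Ifnar1 (0.863, 0.50 to 1.49), Ifnar2 (0.978, 0.629 to 1.52), Ifngr1 (1.09, 0.790 to 1.51) and Ifngr2 (0.940, 0.643 to 1.37) had intervals that include 1. Jak2, a kinase of the interferon-gamma and cytokine receptors, was 2.27-fold lower (1.52 to 3.44), and it fell short of 2-fold under 3 of the alternative settings, one of them equal weight per neutrophil.

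**Figure D2:**
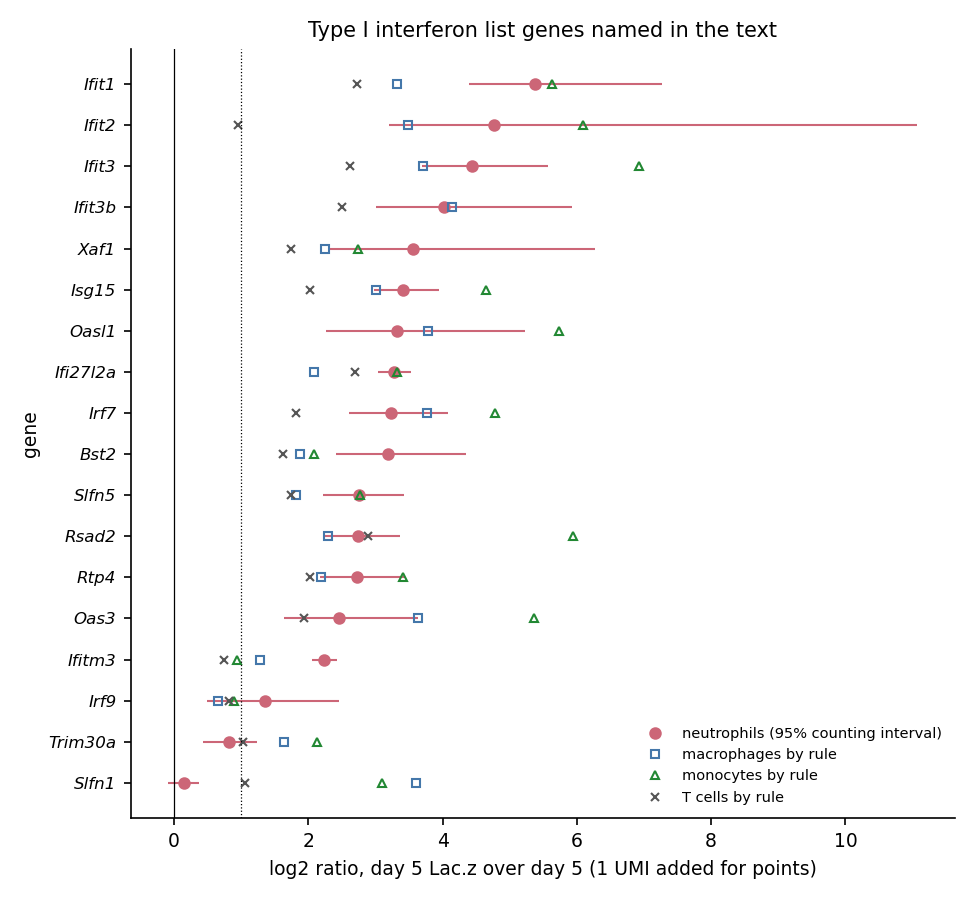
Log2 ratio of day 5 Lac.z over day 5 for the measured type I interferon list genes that the text names, in neutrophils (circles with 95% counting intervals) and in macrophages, monocytes and T cells picked by marker rules. Every neutrophil value shown lies above 0, from 0.15 for Slfn1 to 5.38 for Ifit1, and the dotted line marks 2-fold.

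The difference was spread over many neutrophils but not over all. Per neutrophil, the list took 2.41 of 1000 UMIs at the median at day 5 (quartiles 1.28 and 4.13), 8.16 with Lac.z (2.47 and 23.8) and 1.89 at day 14 (0.85 and 3.93). The highest neutrophil stood at 38.6, 114 and 43.0. Thinned to 1000 UMIs, 7.41% of day 5 neutrophils, 48.4% of Lac.z neutrophils and 11.4% of day 14 neutrophils held at least 10 list UMIs. The lower quartile with Lac.z lay near the median of day 5, and the upper quartile far above the upper quartile of day 5. Thinning left out 4 of 139 neutrophils at day 5 and 3 of 127 with Lac.z, which had fewer than 1000 UMIs. At day 28, 5.09 of 1000 UMIs was the median of only 20 neutrophils.

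**Figure D3:**
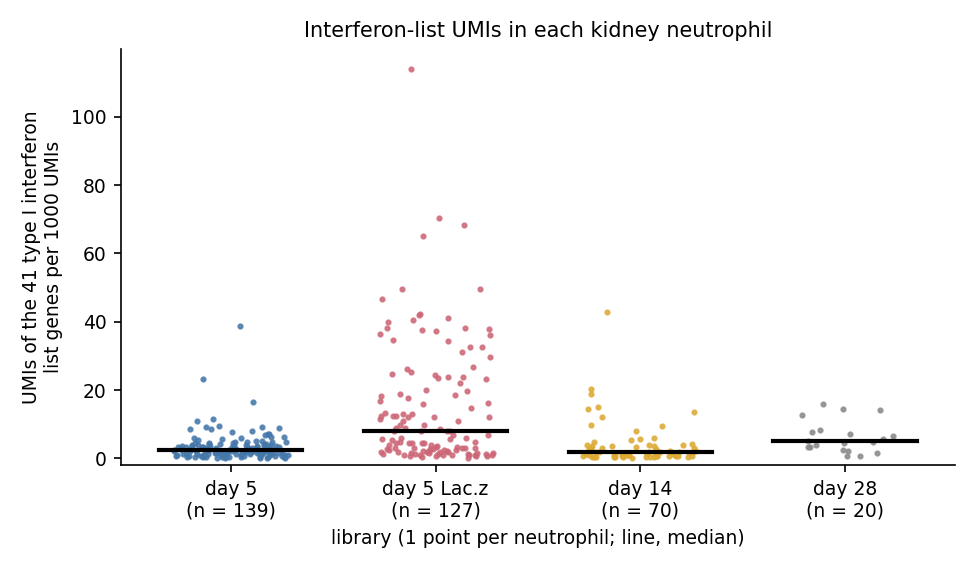
UMIs of the 41 type I interferon list genes per 1000 UMIs in each neutrophil, by library, with the median as a line. The Lac.z neutrophils spread from near 0 to 114, with a median of 8.16, while the medians at day 5 and day 14 are 2.41 and 1.89.

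The list was also higher with Lac.z in the 4 other classes examined. In macrophages 40 of 41 measured genes were at least 2-fold higher (median log2 2.27), against 7.07% of all 12026 genes measured there. In monocytes 36 of 38 were (3.06), against 4.36% of 5917. In T cells 26 of 35 were (1.24), against 1.62% of 7086, and in proximal tubule barcodes 23 of 36 (1.30), against 1.69% of 11817. These classes were picked by marker rules, and no test compares them. The monocyte rule used Ly6c2, Ccr2 and Ms4a4c, and Ms4a4c is on the interferon list, so that class was partly chosen on it. The 6 B cell markers summed to 91.4 CPM in monocytes at day 5 and 14565 CPM with Lac.z. In T cells these markers summed to 360 and 13860 CPM. At day 14 the list gave no such picture in neutrophils: 8 genes were measured, 1 was at least 2-fold higher and 0 lower, with a median of -0.08. The 1 was Ifi27l2a (2.02-fold, 1.62 to 2.51), which was under 2-fold without neutrophils that held a C1q UMI.

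Genes that respond to interferon-gamma as well as type I interferon, and some of the class I antigen presentation genes, were also higher with Lac.z. Of 3 measured genes of the interferon-gamma list, Gbp2 (4.34-fold, 2.42 to 8.35) and Gbp7 (3.36-fold, 1.94 to 6.12), both guanylate-binding proteins, passed 2-fold, and Irf1 did not (1.23-fold, 0.851 to 1.79). Among all 2486 measured genes, 3.34% passed 2-fold higher and 3.06% lower, with a median of -0.20. Of 12 measured class I genes, 5 passed 2-fold higher and 0 lower, with a median log2 of 0.78. These were the peptide transporter Tap1 (9, 48 and 9 UMIs at day 5, with Lac.z and at day 14, 4.76-fold), the immunoproteasome subunits Psmb8 (2.20-fold, under 2-fold without the highest doublet scores) and Psmb9 (2.83-fold), and H2-Q4 (2.98-fold) and H2-Q7 (5.28-fold). The H2-Q genes are close copies of each other, so their reads are uncertain. H2-K1, a classical class I heavy chain, was 1.79-fold higher (1.53 to 2.09), and H2-D1 1.46-fold (1.33 to 1.60).

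The class II genes rested on few cells. All 5 measured class II genes passed 2-fold higher with Lac.z (median log2 2.42), but 4 neutrophils held 1300 of the 1425 class II UMIs. Without neutrophils of over 10000 UMIs the median turned to -0.92, and without the highest doublet scores to -1.63. Cd74, the invariant chain, had 123, 561 and 38 UMIs and turned in the same way, to -0.59 and -1.63.

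Some genes of granule, cytosolic and surface proteins were also higher with Lac.z, while the granule lists as wholes were mixed. Among all measured genes 3.34% were at least 2-fold higher and 3.06% lower. Of 4 measured secondary granule genes, 2 (Ngp and Lcn2) were at least 2-fold higher and 0 lower, with a median log2 of 0.97. Of 7 measured tertiary granule genes, 1 (Mmp8) was higher and 1 lower, with a median of 0.34, and no primary granule gene was measured. The lower one was Slc11a1, a metal transporter of phagosomes, which had 68, 36 and 36 UMIs (2.12-fold lower, 1.39 to 3.26, under 2-fold in 5 alternative settings). Ly6g (ENSMUSG00000022582), a surface protein used to mark mouse neutrophils, had 3, 81, 4 and 6 UMIs, in 3, 23, 4 and 3 neutrophils. Its ratio with Lac.z was 24.1 (7.96 to 119). It was found in 2.16%, 18.1% and 5.71% of neutrophils (day 5, Lac.z, day 14), and in 0% to 0.0175% of proximal tubule barcodes of these 3 libraries. Ngp (ENSMUSG00000032484), a secondary granule protein, had 4, 167 and 4 UMIs in 1, 19 and 3 neutrophils, and 1 Lac.z neutrophil held 31.1% of them. The whey acidic protein gene Wfdc21 had 274, 930 and 132 UMIs (3.03-fold with Lac.z, 2.65 to 3.48). Mmp8, the neutrophil collagenase, had 109, 398 and 21 UMIs (3.26-fold, 2.63 to 4.07). Lcn2, the iron-siderophore binding lipocalin, had 515, 1225 and 197 UMIs (2.12-fold, 1.91 to 2.36), and came under 2-fold with equal weight per neutrophil. Stfa2 (4.33-fold) and BC100530 (6.09-fold) are stefin A family genes with close copies and were found in only 12 Lac.z neutrophils each.

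Most neutrophil genes did not differ by 2-fold. Of 23 measured genes of the neutrophil identity list, 4 were at least 2-fold higher with Lac.z (Ly6g, Wfdc21, Stfa2 and BC100530) and 0 lower, with a median log2 of 0.16. Ly6g was measured only through the Lac.z library, so it could count only as higher. The shares over all measured genes were 3.34% and 3.06%, with a median of -0.20. G0s2, an inhibitor of lipolysis, had 1943, 1096 and 642 UMIs and was 1.99-fold lower with Lac.z (1.84 to 2.14). Slpi (1.42-fold), Pglyrp1 (1.77-fold), Asprv1 (1.77-fold), Hp (1.59-fold) and Lrg1 (1.65-fold) were higher by less than 2-fold, with intervals above 1. Of 10 measured chemoattractant and growth factor receptors, 0 passed 2-fold in either direction. Among them Fpr1, the receptor for formylated peptides, was 1.87-fold higher (1.27 to 2.80), and Ccr1 was at 0.733 (0.628 to 0.856).

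Ly6c2 and Plac8, which monocytes also express, were higher as well. Ly6c2 had 23, 206 and 7 UMIs at day 5, with Lac.z and at day 14, an 8.0-fold ratio with Lac.z (5.18 to 12.9). The 9 monocyte markers summed to 408, 1354 and 175 CPM. With Lac.z 4 neutrophils held 293 of the 688 monocyte-marker UMIs. The part of monocyte RNA in these ratios was not tested.

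Lower with Lac.z by at least 2-fold were 76 genes (3.06% of those measured), nearly as many as the 83 higher (3.34%). Which side was larger depended on the settings given below. Of 12 measured survival and apoptosis genes, 4 were at least 2-fold lower and 0 higher, with a median log2 of -0.36 against -0.20 over all genes. The lowest were 3 copies of the anti-apoptotic gene Bcl2a1, whose near-identical sequences make the division of reads uncertain. Bcl2a1a (ENSMUSG00000102037) had 140, 40 and 103 UMIs, 3.92-fold lower with Lac.z (2.74 to 5.72). Bcl2a1d had 117, 55 and 156 UMIs (2.38-fold lower, 1.72 to 3.35), and Bcl2a1b had 359, 188 and 320 UMIs (2.14-fold lower, 1.79 to 2.57, under 2-fold in 5 alternative settings). Cflar, an inhibitor of caspase 8, was 2.08-fold lower (1.36 to 3.23) and under 2-fold in 6 alternative settings. Mcl1, the main survival protein of neutrophils, had 1105, 1107 and 609 UMIs, 0.894 times day 5 (0.822 to 0.973).

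Siglecf (ENSMUSG00000039013), a sialic acid receptor of eosinophils that is also found on neutrophils in injured or tumour tissue, had 59, 25, 31 and 0 UMIs in 32, 16, 19 and 0 neutrophils. It was 2.64-fold lower with Lac.z (1.63 to 4.41), and under 2-fold with equal weight per neutrophil. Of 9 measured genes listed with Siglecf-type neutrophils, it was the 1 past 2-fold, against 6.4% of all measured genes in either direction. The list median was -0.35, against -0.20 over all. The eosinophil granule genes Prg2 and Epx had no UMI. Hk2, hexokinase of glycolysis, had 48, 16 and 9 UMIs (3.36-fold lower with Lac.z, 1.88 to 6.34). Icam1, an adhesion molecule, had 72, 35 and 69 UMIs (2.30-fold lower, 1.52 to 3.56, under 2-fold when scaled to the median of all genes). Ptgs2, the inducible cyclooxygenase, had 431, 234 and 213 UMIs (2.06-fold lower, 1.76 to 2.43, under 2-fold in 5 alternative settings). The remaining named genes, Frrs1, Ergic2, Cass4, Dusp2, Cdv3, Hnrnph1 and Prkcb, were 2.63-fold to 3.30-fold lower on 40 to 83 UMIs at day 5. Among them Frrs1 came under 2-fold in 2 alternative settings and Dusp2 in 1.

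The inflammatory mediators made by neutrophils were abundant in all 3 libraries. Il1b had 4595, 3713 and 2210 UMIs, or 10131, 7308 and 8055 CPM, and was detected in 97.8%, 98.4% and 97.1% of neutrophils. Cxcl2, a ligand of CXCR2, had 4955, 3928 and 2377 UMIs, or 10925, 7731 and 8663 CPM. With Lac.z these were 0.721 (0.691 to 0.753) and 0.708 (0.678 to 0.738) times day 5. None of the 8 measured genes of the interleukin and cytokine list and none of the 5 measured chemokines passed 2-fold with Lac.z. Sums hide part of the chemokine difference: 4 neutrophils held 704 of 6094, 1617 of 5173 and 675 of 3088 chemokine UMIs. Per neutrophil the chemokine list took 11.2, 6.34 and 10.2 of 1000 UMIs at the median. Tnf had 33, 29 and 40 UMIs.

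Scaling mattered for the counts of this comparison. The median of all genes lay at -0.20. Scaled to that median, 108 genes were at least 2-fold higher and 33 lower, in place of 83 and 76. The interferon median was then 2.94. With the rule genes S100a8 and S100a9 left out of the total, 93 genes were higher and 44 lower.

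At day 14 the neutrophils differed from day 5 in other genes. Of 2056 measured genes, 3.99% were at least 2-fold higher, 3.36% lower and 7.34% either, and the median was -0.01. This comparison uses the same day 5 library as the one above, so the 2 are not independent. Fewer neutrophils (70) and fewer UMIs lay behind it.

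Chil3 (ENSMUSG00000040809), a chitinase-like secreted protein of secondary granules and macrophages, had 219, 294, 3 and 0 UMIs, in 43, 41, 3 and 0 neutrophils. It was 44.2-fold lower at day 14 (14.9 to 216). In macrophages Chil3 stood at 27.2 CPM at day 5 and 1.34 CPM at day 14. Mmp8 was 3.14-fold lower (1.96 to 5.28). Stfa2l1, a stefin A copy, had 530, 846 and 148 UMIs and was 2.17-fold lower, under 2-fold in 3 alternative settings. Cybb, the catalytic subunit of the phagocyte oxidase, had 65, 54 and 9 UMIs in 14, 11 and 8 neutrophils (4.37-fold lower at day 14, 2.17 to 9.98), against 94.8%, 99.0% and 96.5% of macrophages with a UMI. Cyba, its partner subunit, had 517, 680 and 278 UMIs, 0.889 times day 5 (0.765 to 1.03).

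Immediate early genes differed in both directions at day 14. Of 14 measured, 3 were at least 2-fold higher and 2 lower, with a median log2 of -0.41. Among all 2056 measured genes 3.99% were higher and 3.36% lower, with a median of -0.01. Fos (ENSMUSG00000021250), a transcription factor subunit induced within minutes, had 1556, 1394 and 357 UMIs, and was 2.64-fold lower (2.35 to 2.97). Egr1 had 565, 312 and 129 UMIs (2.65-fold lower, 2.18 to 3.23). Fosb had 156, 183 and 201 UMIs (2.13-fold higher, 1.72 to 2.64), and Nr4a1 had 175, 126 and 225 UMIs (2.13-fold higher, 1.74 to 2.60). The third, Klf4, had 52 UMIs at day 14, 63.5% of them in 1 neutrophil, and its direction reversed in 3 alternative settings. Fosb and Nr4a1 came under 2-fold in 1 setting each. In macrophages Fos (1.49-fold) and Egr1 (1.65-fold) were higher at day 14, and Fosb was 5.05-fold higher. Ier3, an early response gene under NF-kB control, had 925, 648 and 182 UMIs in neutrophils (3.07-fold lower, 2.62 to 3.62). Il18rap, Gpr146, Maf1 and Unc119 were 2.72-fold to 3.18-fold lower on 42 to 72 UMIs at day 5. Hk2 was 3.23-fold lower (1.57 to 7.48).

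Rabgef1 (ENSMUSG00000025340), a ubiquitin ligase and Rab5 exchange factor of endosomes, had the highest ratio at day 14 among the 34 of 82 genes past 2-fold higher that met the conditions for named genes. It had 25, 27 and 69 UMIs in 23, 23 and 37 neutrophils, a ratio of 4.56 (2.85 to 7.53). Lars2, the mitochondrial leucyl-tRNA synthetase, had 152, 104 and 362 UMIs (3.94-fold, 3.25 to 4.79), and was also 2.55-fold higher in macrophages. Ell2, an elongation factor, had 29, 23 and 66 UMIs (3.76-fold). The clock gene Per1 (2.83-fold), the AP-1 repressor Jdp2 (2.88-fold), the inhibitory sialic acid receptor Siglece (2.59-fold, under 2-fold without C1q UMIs) and the small GTPase Rab20 (2.60-fold) were higher too. Vps37b (2.81-fold), Rilpl2 (2.68-fold) and the actin capping gene Capg (3.25-fold) completed the named genes. Of these 10, Lars2, Rabgef1 (3.29-fold), Jdp2 (2.83-fold), Per1 (2.48-fold), Rilpl2 (2.73-fold), Rab20 (2.52-fold) and Siglece (3.23-fold) were at least 2-fold higher in macrophages as well. Capg was at 0.321 there. Among all 11919 genes measured in macrophages, 1336 were at least 2-fold higher at day 14 and 307 lower.

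A few genes of NF-kB signalling were over 2-fold higher at day 14. Nfkb1 had 22, 27 and 41 UMIs (3.08-fold, 1.79 to 5.43), and Tnfaip3, the feedback inhibitor A20, had 72, 83 and 97 UMIs (2.23-fold, 1.62 to 3.06). With Ier3 lower, 2 of the 10 measured genes of that list passed 2-fold higher and 1 lower, with a median log2 of 0.57. The shares over all measured genes at day 14 were 3.99% and 3.36%. Of the 9 measured genes listed with Siglecf-type neutrophils, 3 passed 2-fold higher and 0 lower, but the median was -0.18 and 4 of 9 lay above 0. Siglecf itself was at -0.18. The 3 were Csf1, Cstb and Hif1a. Csf1, the macrophage growth factor, had 47, 52 and 64 UMIs (2.25-fold, 1.52 to 3.35), and the protease inhibitor Cstb had 183, 156 and 243 UMIs (2.19-fold, 1.80 to 2.67, under 2-fold in 1 alternative setting). Hif1a, the oxygen-sensing factor, had 34, 35 and 46 UMIs (2.24-fold, 1.40 to 3.59, under 2-fold in 3 alternative settings). Bcl2a1d was 2.20-fold higher (1.72 to 2.83). Ccrl2, an atypical chemerin receptor, was 1.78-fold higher (1.56 to 2.03), and the inflammasome sensor Nlrp3 1.91-fold (1.54 to 2.38).

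**Figure D4:**
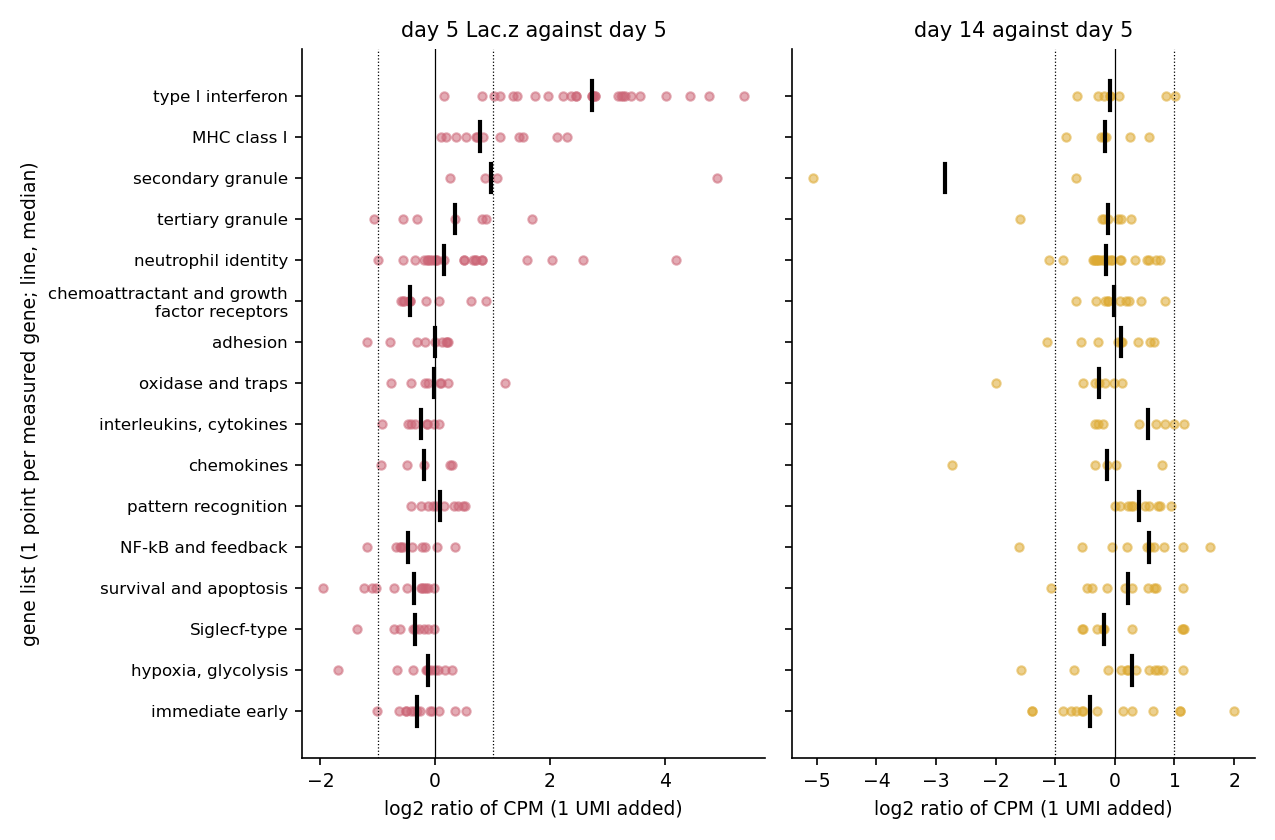
Log2 ratios of the measured genes of 16 lists in neutrophils, day 5 Lac.z against day 5 on the left and day 14 against day 5 on the right, with list medians as black lines and 2-fold as dotted lines. The type I interferon list lies at a median of 2.74 on the left and -0.08 on the right.

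Within each library the neutrophils differed from one another along Retnlg. Each neutrophil was thinned to 1000 UMIs and placed in a range of 0, 1 to 4 or at least 5 Retnlg UMIs. These are ranges of a rule gene and not cell types, and 11, 10 and 4 neutrophils stood at 4 or 5 UMIs. The upper range held 35 of 135 neutrophils at day 5 (25.9%), 67 of 124 with Lac.z (54.0%) and 16 of 70 at day 14 (22.9%). The range with no Retnlg UMI held 51.9%, 25.8% and 48.6%. Retnlg helped to choose the neutrophils, so these sizes describe the ranges and support no difference between libraries. The gene levels and coefficients by Retnlg below are likewise descriptions of a set chosen in part on Retnlg.

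Wfdc21 was higher in the upper range of each library than in the lowest, from 140 to 1986 CPM at day 5, from 221 to 3487 with Lac.z and from 250 to 1223 at day 14. Slpi, an antiprotease, went from 658 to 4497, from 1615 to 3584 and from 653 to 3619 CPM. Bcl2a1b went the other way, from 1109.6 to 462, from 961 to 110 and from 2361 to 147 CPM. Siglecf went from 206 to 21.0, from 94.5 to 21.2 and from 241 to 0 CPM. Ccl3, a chemokine for monocytes and lymphocytes, was lower at the top in all 3, and Il1b showed no common direction. Of 280 list and named genes with at least 50 UMIs, 24 were at least 2-fold higher and 32 at least 2-fold lower in the upper range than in the lowest in all 3 libraries. Of all 2166 measured genes outside the rule, 3.51% were higher and 7.48% lower in this way, with median log2 ratios of -0.19, -0.31 and -0.30. The 20 ribosomal protein genes had medians of -1.32, -1.16 and -1.01 on the log2 scale, upper against lowest range. The 23 type I interferon list genes measured here had medians of 1.09, 1.46 and 0.87.

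Over single neutrophils the Spearman coefficient of the fraction of UMIs in Retnlg with that in Wfdc21 was 0.65, 0.70 and 0.51 (139, 127 and 70 neutrophils). With the 3 Bcl2a1 copies together it was -0.55, -0.58 and -0.58, and with Siglecf -0.37, -0.33 and -0.50. With the type I interferon list it was 0.26, 0.06 and 0.28. These are descriptions: the neutrophils of 1 library share that library, and fractions of 1 total are not independent of each other.

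The interferon list was also compared within each of the 3 Retnlg ranges, as a description. Retnlg was part of the rule, so neutrophils of different ranges met the rule in different ways. Whether the interferon difference depends on Retnlg was not tested. With genes of at least 20 UMIs, the median log2 ratio of Lac.z against day 5 was 2.25 without Retnlg UMIs (18 genes, 32 against 70 neutrophils), 2.21 with 1 to 4 (25 genes) and 2.30 with at least 5 (28 genes). At least 2-fold higher were 13, 23 and 26 of these genes, against 7%, 6.79% and 6.76% of all genes of at least 20 UMIs in the same ranges. At least 2-fold lower were 0 list genes in each range, against 7.19%, 8.63% and 7.23% of all. Isg15 was 6.89-fold (3.6 to 14), 8.81-fold (5.1 to 17) and 9.46-fold (5.4 to 18) higher in the 3 ranges. Bcl2a1b was at 0.866 (0.69 to 1.1), 0.563 (0.37 to 0.85) and 0.238 (0.14 to 0.40) times day 5. Siglecf was at 0.459 (0.22 to 0.88) in the range without Retnlg UMIs and at 1.01 (0.17 to 11) in the upper range. Ly6g in the upper range was at 21.0, 301 and 48.9 CPM. These ranges were added after the data had been seen.

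**Figure D5:**
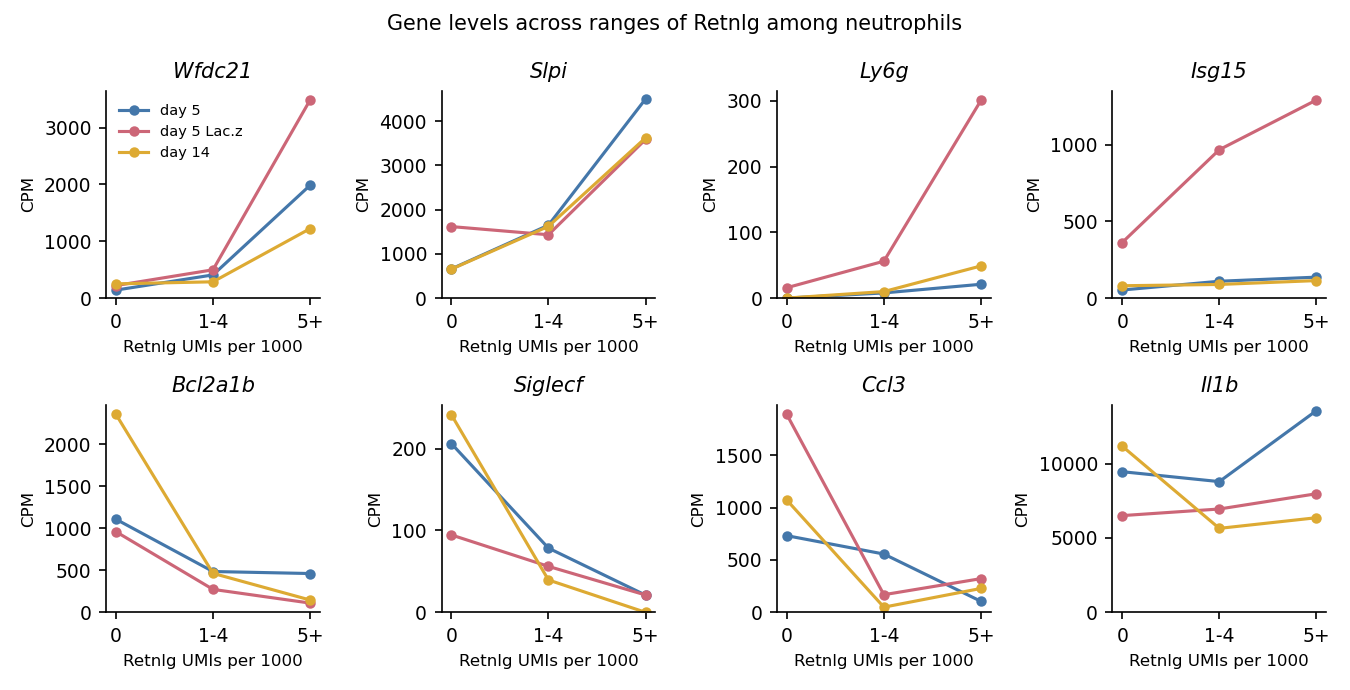
CPM of 8 genes summed over the neutrophils with 0, 1 to 4 or at least 5 Retnlg UMIs per 1000, at day 5, day 5 Lac.z and day 14. Wfdc21, Slpi and Ly6g are highest in the upper range and Bcl2a1b and Siglecf in the lowest, and Isg15 in the Lac.z library (362 to 1292 CPM) lies above the other libraries (53 to 137 CPM) in every range.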

How the data were processed

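The authors deposited counts, whole numbers of UMIs per gene and barcode, per the file headers and the values. Kidneys were digested with enzymes and red blood cells were lysed, per the labels' protocols. The submitters' processing notes name mm10 as the build, and the sources used here name no aligner. From these counts the UMIs of the neutrophils were summed per library. Genes counted as measured had 50 or more UMIs in the 2 sums together, and as higher or lower at 2-fold, on the ratio of CPM with 1 UMI added to each sum (log2 values); printed fold ratios have none added. A gene near 0 in 1 library met a cut of 50 or 20 UMIs only through the other library, so its direction was fixed by that cut. Ratio intervals are exact conditional binomial, at 95%. The intervals cover counting error only. Doublets were not removed in the main analysis; Scrublet (scanpy 1.11.5) removed the highest scores, 0.8% per 1000 barcodes, as an alternative, because its own threshold marked 0.0142% of barcodes with Lac.z and 0.0141% at day 28 and had not worked there. That removed 7, 16, 8 and 1 neutrophils. Comparison classes came from marker rules, and every class was limited to barcodes with under 10 UMIs of S100a8 and S100a9 together. Named genes were the 10 highest and 10 lowest past 2-fold in each comparison, with at least 10 neutrophils with a UMI, no neutrophil over 20% of the UMIs and a level at or above that of other barcodes, leaving out rule, mitochondrial, haemoglobin, immunoglobulin and T cell receptor genes and unnamed models, beside members of 38 gene lists. The members and lists were chosen with earlier results of these data known. The software was python 3.11.15 with scipy 1.17.1, and the ratios were tested on simulated sums. These sums had counting error only and no spread between cells, so they say nothing on UMIs held by few neutrophils. Depths were 82727595, 76678882, 89408767 and 104454319 UMIs per library.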

Additional observations from a re-analysis of the deposited data

Results flagged for a closer look

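Lcn2 was higher with Lac.z in neutrophils by 1.08 on the log2 scale and lower in rule-based macrophages (-1.10). The opposite directions flagged it, each rests on 1 library a group, and the difference was not tested. The same holds for Fbp1, a gluconeogenic enzyme of the proximal tubule, at -1.05 in neutrophils and 1.76 in macrophages, and for haemoglobin. Hbb-bs was at 10.65 in neutrophils and -3.81 in macrophages, Hba-a1 at 9.69 and -4.10, Hbb-bt at 9.35 and -3.57, and Hba-a2 at 9.23 and -4.22. In the Lac.z library 4 neutrophils held 10035 of 10067 erythroid UMIs.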

How the results depend on the processing

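No paired analysis was possible because each group is 1 library. The interferon median with Lac.z ranged from log2 2.21 to 2.94 over the alternatives run. The 76 genes at least 2-fold lower with Lac.z became 124 without the highest Scrublet scores, 33 scaled to the median ratio and 44 with S100a8 and S100a9 out of the total, which gave 93 higher. With at least 20 UMIs a gene 177 were higher and 318 lower, with at least 100 UMIs 48 and 26, and at 1.5-fold 160 and 380. For day 14 the 69 lower genes became 44 without neutrophils with a C1q UMI. At 20 UMIs 259 were higher and 245 lower, at 100 UMIs 29 and 30, and at 1.5-fold 241 and 233. With at most 25% mitochondrial UMIs the share was 2.03% at day 5 and 2.22% with Lac.z, so their ratio turned from 0.919 to 1.09. With leukocytes as denominator the shares were 3.1%, 5.90%, 3.71% and 1.51%, and the ratios to day 5 were 1.90 (Lac.z), 1.2 (day 14, reversed) and 0.487 (day 28). The class II median with Lac.z reversed to -1.63 without the highest Scrublet scores and to -0.92 without neutrophils over 10000 UMIs, as did Cd74 (-1.63 and -0.59). Klf4 at day 14 reversed to -0.55 without the highest Scrublet scores, to -0.55 without neutrophils rich in proximal tubule and macrophage markers, and to -1.51 without neutrophils over 10000 UMIs. The neutrophils over 10000 UMIs, the total without mitochondrial, haemoglobin, Gm42418 and AY036118 UMIs, and the Retnlg ranges were chosen after seeing the data. Causes were not tested. The 70 neutrophils at day 14 and sums of 50 UMIs limit the precision of single genes.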
